A study of Mus musculus with 6 samples.

Results

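Distal convoluted tubule (DCT) cells were taken from the 3 kidney libraries of a droplet single-cell RNA-seq study of mouse tissue dissociation, and were recognized by the thiazide-sensitive sodium chloride cotransporter gene Slc12a3. A cell counted as a DCT cell when it held at least 3 unique molecular identifiers (UMIs, each standing for 1 captured mRNA molecule) of Slc12a3, at most 1 UMI each of Slc12a1 and Aqp2, and 0 UMIs of Ptprc and Pecam1. Cells with fewer than 200 genes, more than 3000 genes or more than 50% mitochondrial UMIs were left out first. These rules gave 198 cells out of 24212 kidney cells within the limits, 34034 kidney cells deposited, and 58561 cells in the whole series of 6 libraries. Levels of the 5 genes in the rule are therefore a description and were not tested.

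The study compared a microfluidic tissue processing platform, in which minced tissue is digested in one device and then passed through an integrated dissociation and filter device, with a conventional digest. The kidneys came from C57BL/6 mice aged 12 weeks, and all 3 preparations used type I collagenase, DNase I, red blood cell lysis and sorting for cells that excluded a dead-cell dye. The control was digested for 60 min, while platform cells were collected after a 15 min interval and again after a 60 min interval. Each condition was 1 library, and per the study's reporting summary all preparations of a replicate used tissue of 1 mouse, so no test was possible between conditions, and intervals given for shares, counts and ratios cover counting error only.

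The DCT is the short nephron segment between the thick ascending limb (TAL) of the loop of Henle and the connecting tubule and collecting duct. It takes up sodium chloride through the Slc12a3 product, which is switched on by the kinases Wnk1 and Wnk4 and their partners, and Wnk4 is in turn removed by the Klhl3 and Cul3 ubiquitin ligase. The segment also sets the final magnesium content of urine through the channel Trpm6. Its late portion adds calcium transport by Calb1, S100g, Trpv5 and Slc8a1 and, toward the collecting duct, the epithelial sodium channel.

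Sequences upstream of 4 genes are shown because they stand for the gene groups on which the results turn. Slc12a3 defines the cells, Pvalb and Trpm6 set them apart from both neighboring segments, and S100g divided the cells among themselves. Each sequence holds the 250 bases before the RefSeq start on GRCm38.p6, written 5′ to 3′ on the strand of the gene, with capitals marking an AP-2 motif (GCCNNNGGC) or a TATA box (TATAAA).
Slc12a3: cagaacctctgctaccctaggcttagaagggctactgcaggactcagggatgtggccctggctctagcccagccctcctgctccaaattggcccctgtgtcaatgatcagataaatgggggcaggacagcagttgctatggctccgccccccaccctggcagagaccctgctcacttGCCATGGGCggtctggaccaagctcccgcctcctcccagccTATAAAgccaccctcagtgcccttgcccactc
Pvalb: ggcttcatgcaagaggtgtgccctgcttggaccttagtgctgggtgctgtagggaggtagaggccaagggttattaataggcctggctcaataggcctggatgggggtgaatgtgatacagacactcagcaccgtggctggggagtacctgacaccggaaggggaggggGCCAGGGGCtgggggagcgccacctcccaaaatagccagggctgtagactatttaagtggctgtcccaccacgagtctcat
Trpm6: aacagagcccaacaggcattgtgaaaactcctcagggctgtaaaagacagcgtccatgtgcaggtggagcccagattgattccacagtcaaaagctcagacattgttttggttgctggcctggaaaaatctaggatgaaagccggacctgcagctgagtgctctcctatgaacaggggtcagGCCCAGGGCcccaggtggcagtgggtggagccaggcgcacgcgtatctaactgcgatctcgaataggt
S100g: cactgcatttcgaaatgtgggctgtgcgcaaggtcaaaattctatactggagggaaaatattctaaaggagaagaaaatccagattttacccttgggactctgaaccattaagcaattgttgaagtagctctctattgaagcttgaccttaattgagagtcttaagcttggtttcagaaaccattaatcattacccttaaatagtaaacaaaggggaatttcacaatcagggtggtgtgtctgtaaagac
The windows lie at chr8:94328958-94329207 on the plus strand for Slc12a3, chr15:78206401-78206650 on the minus strand for Pvalb, chr19:18749480-18749729 on the plus strand for Trpm6 and chrX:162964600-162964849 on the minus strand for S100g. The AP-2 motif began 73, 81 and 68 bases before the start of Slc12a3, Pvalb and Trpm6, and the TATA box of Slc12a3 began at 32 bases. Both strands were searched, also for TCAAGGTCA, the site of estrogen-related receptors, and GTTAAT, a core of the HNF1 site, and the S100g window held none of these letters. Of the 13 genes with an entry, out of 15 looked up, 4 held an AP-2 motif, against 15.4% of all 27025 genes with such windows. The genes looked up were not all particular to the DCT, and among them was Umod, which marks the TAL. The shares of genes were 14.3% for the TATA box, 7.49% for GTTAAT and 0.422% for TCAAGGTCA.

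Depth and cell quality differed between libraries. The deposited libraries held 8233, 12082 and 13719 cells in the control, 15 min and 60 min conditions, in which order all values below are given, at medians of 5987, 7976 and 5575 UMIs per cell. DCT cells held 199202, 179618 and 585579 UMIs in sum, with medians of 3370, 5782.5 and 4268 UMIs per cell. Their median mitochondrial share was 19.9, 19.7 and 34.6%, and 18 of 43, 14 of 30 and 85 of 125 cells were over 25%. The 3 kidney libraries shared 309 barcode sequences, which touched 4 DCT cells. Without regard to the limits on genes and mitochondrial UMIs, 470 kidney cells met the rule on UMIs, and 42.1% of these passed the limits, against 71.1% of all kidney cells.

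**Figure D1:**
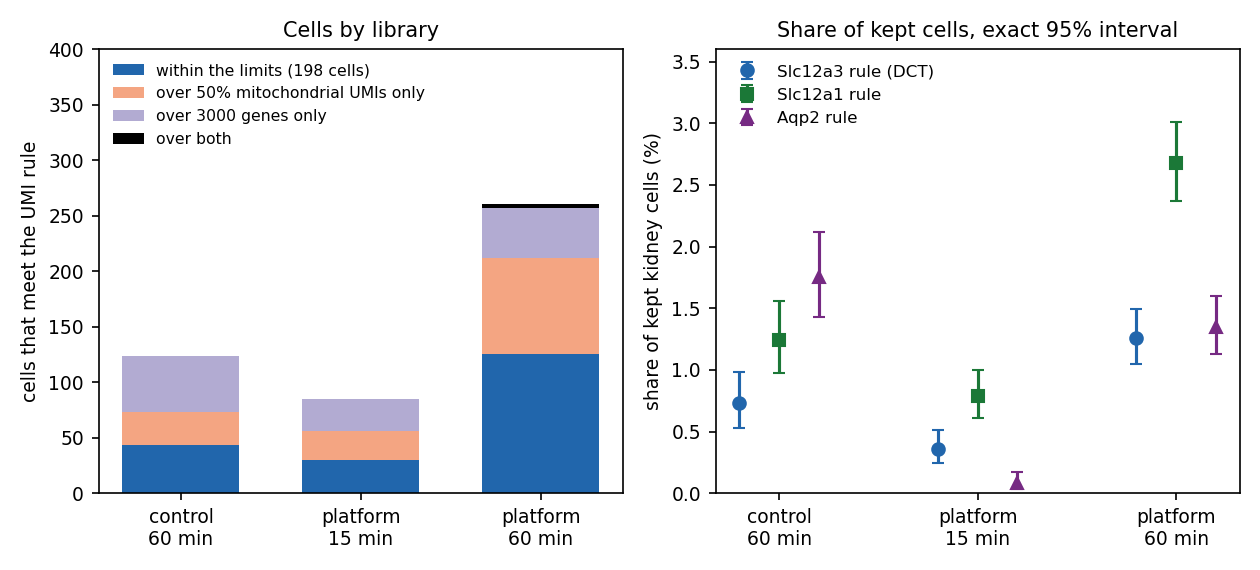
Left, number of cells per library that met the rule on UMIs, split into cells within the limits (43, 30 and 125) and cells over the mitochondrial limit, the gene limit or both. Right, share of kept cells in percent that met the Slc12a3, Slc12a1 and Aqp2 rules, with exact 95% binomial intervals. The DCT share was lowest at the 15 min interval and highest at the 60 min interval.

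DCT cells were 43 of 5886 kept cells in the control (0.731%, exact 95% binomial interval 0.529 to 0.983), 30 of 8390 at the 15 min interval (0.358%, 0.241 to 0.510) and 125 of 9936 at the 60 min interval (1.26%, 1.05 to 1.5). The 3 intervals did not overlap. The 15 min share was lower than the control share by 0.373 percentage points (95% interval of the difference, 15 min minus control, -0.647 to -0.131), and the 60 min share was higher by 0.528 points (0.205 to 0.831). The order of the control and the 60 min interval depended on the limits. With a mitochondrial limit of 25%, the shares were 0.496, 0.282 and 0.491%, and with no upper limit on genes they were 1.26, 0.529 and 1.35%, so that the control and the 60 min interval were close under both, while the 15 min interval was lowest under each. TAL cells, chosen by at least 3 UMIs of Slc12a1 and the same limits on the other genes, were 1.24, 0.787 and 2.68% of kept cells. Cells chosen in the same way by Aqp2, called collecting duct principal cells (PC) here, were 1.75, 0.0834 and 1.35%. No gene of the Aqp2 rule separates principal cells from connecting tubule cells, so PC may hold both. The Slc12a3 rule likewise holds no gene against connecting tubule cells, so the cells called DCT may include some. All 3 segments were thus lowest at the 15 min interval, while the highest share fell to the 60 min interval for DCT and TAL cells and to the control for PC. Among the 3 segments together, DCT cells made up 43 of 219 cells (19.6%, 14.6 to 25.5), 30 of 103 (29.1%, 20.6 to 38.9) and 125 of 525 (23.8%, 20.2 to 27.7), and these intervals overlapped. Proximal tubule (PT) cells, chosen by at least 3 UMIs of Slc34a1, took 42.7, 83.5 and 25.7% of kept cells, so a lower DCT share and a higher PT share cannot be told apart in shares of one total.

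The label was checked against marker genes, whose levels are given in CPM, the UMIs of a gene per 1000000 UMIs of the summed cells of a library. Slc12a3, which the rule fixed, stood at 11320.2 CPM (10858 to 11797), 7867 CPM (7462 to 8288) and 6706 CPM (6498 to 6919) in DCT cells, and at no more than 8.23 CPM in TAL or PC sums. Pgam2, a muscle-type phosphoglycerate mutase, stood at 959, 1030 and 878 CPM in DCT cells and 38.7, 7.21 and 19.5 CPM in TAL cells. In PC it stood at 621, 899 and 736 CPM, lower in each library by a log2 difference that edgeR put at 0.69 (SE 0.24, adjusted p = 0.0208). That call was lost without the control (adjusted p = 0.314) or the 15 min library (0.0712), without the library block (0.0797) and by DESeq2 (0.109). The calcium buffer Calb1 stood at 2149, 1180.3 and 4408 CPM in DCT cells and at 155, 0 and 39.7 CPM in TAL cells, but PC held as much of it, at 3313, 5058 and 2836 CPM. The calcium buffer Pvalb, known from the early DCT, stood at 592, 1013 and 326 CPM in DCT cells against 0, 0 and 8.23 CPM in TAL cells and 0, 0 and 1.52 CPM in PC. Pvalb was thus far above both neighbors in every library. Of the 10 DCT markers other than Slc12a3, 8 were higher than in TAL at an adjusted p under 0.05 by edgeR. Egf was lower, and Tfap2b was not called. Against PC, 8 were higher, and Calb1 and Tfap2b were not called. Over all genes tested, 4.41% were higher against TAL and 10.9% against PC. Umod, the uromodulin gene that marks the TAL, was also present, at 2314, 2277 and 1260.3 CPM in DCT cells, 11946, 11364 and 13440.5 CPM in TAL and 19.4, 0 and 79.1 CPM in PC. It was lower than in TAL by a log2 difference of -2.74 (SE 0.34, adjusted p = 3.33e-14, edgeR), and a Umod UMI was found in 76.3% of DCT cells and 11.6% of endothelial cells, or 50.8 and 3.90% thinned to 1000 UMIs per cell. A Umod UMI was thus found in a larger share of DCT cells than of endothelial cells. In the control, 26.6% of the UMIs of the 5 TAL markers other than Slc12a1 came from 1 DCT cell. The source of Umod RNA in DCT cells was not tested. Among other cell types, podocyte markers were at 0 in all 3 DCT sums, and intercalated cell markers did not exceed 5.57 CPM in sum.

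**Figure D2:**
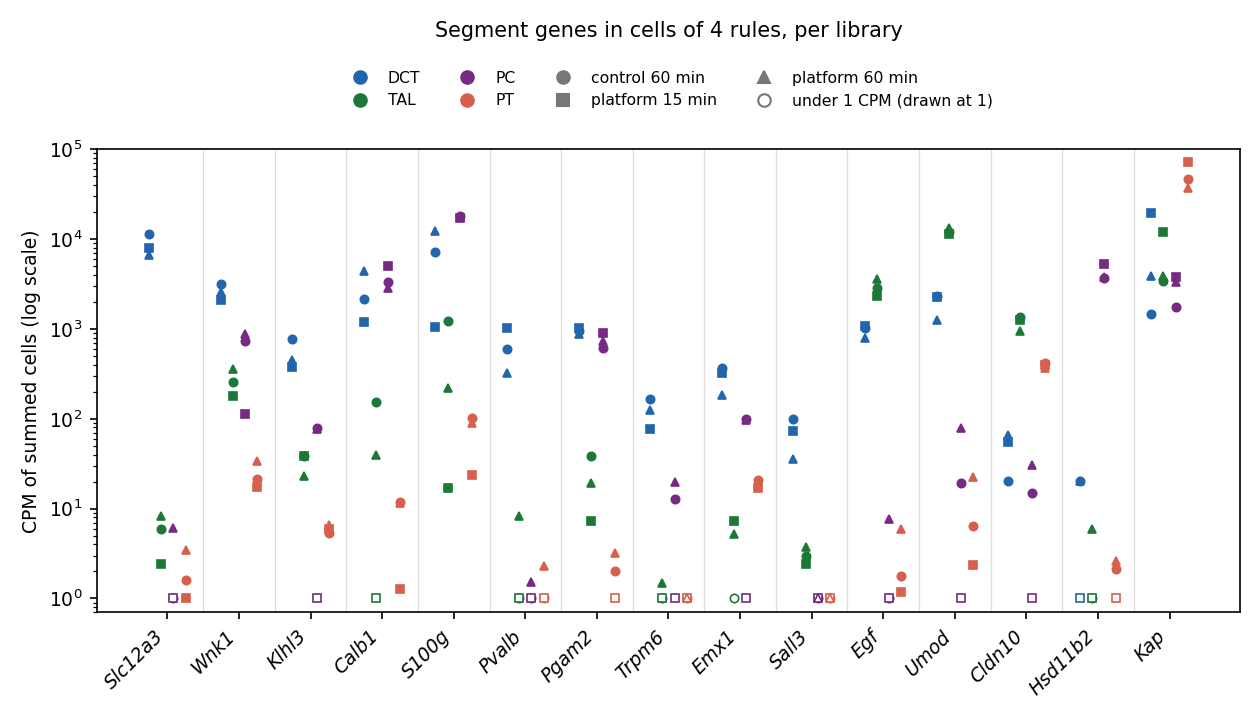
CPM on a log axis of 15 segment genes in the summed DCT, TAL, PC and PT cells of each library. Open symbols stand for values under 1 CPM. Slc12a3, Pvalb, Trpm6 and Sall3 were highest in DCT cells in all 3 libraries, while Kap, a proximal tubule gene, was also present in every segment.

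RNA of other cell types was present and uneven. The 10 PT markers summed to 2023, 24580 and 7051 CPM in DCT cells, against 68148, 96894 and 60605 CPM in PT cells themselves. At the 15 min interval 63.4% of these UMIs came from 1 DCT cell, and the median cell held 0.145% of its UMIs in the list, against 0.0939% in the control and 0.120% at 60 min. The 6 leukocyte markers other than the rule gene Ptprc summed to 70.3, 39.0 and 1242 CPM, with 68.6% of the last in 1 cell. Kap had a UMI in 89.9% of DCT cells and in 94.8% of endothelial cells, at median depths of 4341 and 4323 UMIs. Thinned to 1000 UMIs per cell, the shares were 55.4 and 56.8%, so Kap was found about as often in both. For Pvalb the shares were 41.9% of DCT cells and 1.14% of endothelial cells, or 25.6 and 0.312% when thinned. For Calb1 they were 65.7 and 4.57%, or 48.2 and 1.15% when thinned. Both were therefore far above the share found in a cell type that lacks them.

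Slc12a3 itself varied widely between cells. It ranged from 3 to 265 UMIs in the control, 3 to 280 at 15 min and 3 to 240 at 60 min, with medians of 16, 8.5 and 9 UMIs. The 69 cells with over 20 UMIs (34.8% of the cells) held 88.6% of all Slc12a3 UMIs, and the 63 cells with 3 to 5 UMIs (31.8%) held 3.00%. Cells with over 20 UMIs were 20 of 43, 12 of 30 and 37 of 125. Just inside the rule, the 33 cells with exactly 3 UMIs held 1935 CPM of Wnk1, 1429.6 CPM of Pgam2 and 991 CPM of Kap. Just outside it, the 50 cells with 2 UMIs held 681 CPM of Wnk1, 476 CPM of Pgam2 and 25519 CPM of Kap, and the 256 cells with 1 UMI held 36343 CPM of Kap. The cells with 3 UMIs also held 5833 CPM of Calb1 and 12771 CPM of S100g. Those with 2 UMIs held 2860 and 10913 CPM, and those with 1 UMI held 694 and 3807 CPM. S100g thus differed less between 3 and 2 UMIs than Wnk1, Pgam2, Calb1 and Kap did. The 21 cells with 4 UMIs held 1097.5 CPM of Wnk1, 1186 CPM of Pgam2, 2595 CPM of Calb1 and 3233 CPM of Kap. Wnk1, Pgam2 and Calb1 therefore did not rise steadily with Slc12a3 UMIs.

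To ask which genes distinguished DCT cells from the adjacent segments, UMIs were summed per library and segment and fitted with the quasi-likelihood test of edgeR, with the library as a block and Benjamini-Hochberg adjustment over 5235 genes. Against TAL cells, 231 genes were higher (4.41% of all tested) and 256 were lower (4.89%), and 918 had an unadjusted p under 0.05. Against PC, 572 genes were higher (10.9%) and 466 were lower (8.9%), and 1591 had an unadjusted p under 0.05. Fold changes below are log2 values, DCT minus the other segment, with the standard error (SE) taken from the fit of 3 libraries per segment. Since the libraries are preparations of tissue from the same mouse, p-values do not measure the spread between animals. The fit shares its estimate of spread among genes, so p-values and SE do not measure a gene's own spread between sums either. S100g, for example, had an SE of 0.41 against TAL. Its sums were 7113, 1063 and 12202 CPM in DCT cells and 1218, 16.8 and 219 CPM in TAL cells. The 15 min PC sum held 7 cells and 8897 UMIs, and without the 15 min library 174 genes were higher and 190 lower against TAL, and 510 and 471 against PC. The counts were 138, 171, 193 and 206 in the same order without the control, and 120, 113, 293 and 170 without the 60 min library.

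In the WNK pathway, Wnk1 and Klhl3 were higher than in both neighbors. Wnk1 stood at 3163, 2116 and 2575 CPM in DCT cells, 259, 178 and 355 CPM in TAL cells and 738, 112 and 887 CPM in PC, with no overlap between DCT cells and either neighbor. It was higher by 3.26 against TAL (SE 0.26, adjusted p = 3.86e-34, edgeR) and by 2.15 against PC (SE 0.26, adjusted p = 2.3e-14, edgeR). Counts from the 3′ end of mRNA do not separate the full-length kinase from its short kidney-specific form. Klhl3, the adaptor that marks WNK kinases for removal, stood at 768, 379 and 451 CPM in DCT cells against 38.7, 38.5 and 23.2 CPM in TAL and 79.8, 0 and 76.0 CPM in PC, a difference of 3.96 (SE 0.28) and 2.95 (SE 0.28), with adjusted p of 5.89e-43 and 3.09e-23 by edgeR. Wnk4 was higher by less, 0.90 (SE 0.24) and 0.82 (SE 0.26), with adjusted p of 0.00277 and 0.0126 by edgeR. Without the control library these became 0.411 and 0.149, and without the 60 min library 0.0779 and 0.171. The kinase Stk39, which phosphorylates the cotransporter, stood at 105, 122 and 64.9 CPM in DCT cells and 104, 67.3 and 71.8 CPM in TAL, and its difference was 0.12 (SE 0.28) against TAL and 0.01 (SE 0.31) against PC, both short of the threshold. Of the 9 tested genes of the list other than Slc12a3, 3 were higher against TAL (median 0.45, all genes -0.00), and 4 were higher and 2 lower against PC (median 0.13, all genes 0.02). The 2 lower against PC were Sgk1, the aldosterone-induced kinase, and Nedd4l, the ubiquitin ligase it restrains, whose call was lost without the control (adjusted p = 0.123, edgeR) or the 60 min library (0.247). The phosphatase inhibitor Ppp1r1a stood at 1456, 1303 and 929 CPM, near the TAL values of 1640.2, 1433 and 1408 CPM and far above the PC values of 4.31, 0 and 16.7 CPM.

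Of the magnesium genes, Trpm6 separated DCT cells from both neighbors. It stood at 166, 77.9 and 125 CPM in DCT cells, 0, 0 and 1.5 CPM in TAL and 12.9, 0 and 19.8 CPM in PC. Over the 3 libraries this was 120 UMIs in DCT cells against 2 in TAL cells, a CPM ratio of 130 (35.2 to 1085), and the fitted difference against PC was 3.17 (SE 0.39, adjusted p = 5.15e-14, edgeR). Its close relative Trpm7 stood at 507, 390 and 244 CPM and was higher by 2.78 (SE 0.26) against TAL and 2.56 (SE 0.29) against PC, and the basolateral magnesium protein Cnnm2 by 2.86 (SE 0.40) and 1.63 (SE 0.39), all past the threshold. The last of these, Cnnm2 against PC, had an adjusted p of 0.189 by edgeR without the 60 min library. Egf, the hormone that raises Trpm6 activity, lay between the segments at 1019, 1086 and 796 CPM in DCT cells, 2837, 2308 and 3635 CPM in TAL and 0, 0 and 7.60 CPM in PC. The tight junction genes of magnesium uptake in the TAL were barely detected, since Cldn16 was at 0 in every DCT sum, at least 27.1-fold lower than in TAL against a floor of 3 UMIs over the 3 libraries, and Cldn19 had 1 UMI. In all, 3 of 7 tested magnesium genes were higher and 3 lower against TAL, and 4 of 7 were higher against PC.

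Of 10 tested calcium genes, 7 were higher and 1 lower against TAL (median 2.58), and 2 were higher (Pvalb and Pth1r) and 2 lower (S100g and Trpv5) against PC (median -0.28). The one lower than in TAL was the calcium-sensing receptor gene Casr, whose call was lost without the 15 min library (-1.85, adjusted p = 0.0856, edgeR) and by DESeq2 (adjusted p = 0.19). Among the higher ones, the calcium pump gene Atp2b4 lost its call without the 60 min library (0.83, adjusted p = 0.757, edgeR). Against PC, Pth1r lost its call without the control library (adjusted p = 0.245, edgeR) and Trpv5 by DESeq2 (adjusted p = 0.189). S100g, the vitamin D-dependent calbindin-D9k, stood at 7113, 1063 and 12202 CPM in DCT cells, 1218, 16.8 and 219 CPM in TAL and 18152, 17084 and 17649 CPM in PC. The highest DCT value was 11.5 times the lowest, the PC values lay between 17084 and 18152 CPM, and the TAL range overlapped the DCT range through the control TAL sum. The difference against TAL was 4.21 (SE 0.41, adjusted p = 1.65e-22, edgeR), and that against PC was -1.44 (SE 0.36, adjusted p = 0.000819, edgeR). By edgeR, the call against PC was lost without the 15 min library (-0.64, adjusted p = 0.417) or the control library (-1.61, adjusted p = 0.0714), and without the library block (-0.98, adjusted p = 0.418). Calb1 was higher by 5.59 against TAL (SE 0.34, adjusted p = 1.84e-58, edgeR), and its difference from PC was -0.04 (SE 0.27, adjusted p = 0.932). The sodium-calcium exchanger Slc8a1 followed S100g at 85.3, 5.57 and 205 CPM, against at most 5.95 CPM in TAL. The vitamin D receptor gene Vdr was higher than in TAL by 1.69 (SE 0.29). Trpv5, the apical calcium channel, was nearly absent, with 7 UMIs in all, at 0, 0 and 12.0 CPM, and a CPM ratio to TAL of 15.2 (1.95 to 683) that rests on 1 TAL UMI. Its call against TAL turned to -2.01 without the 60 min library.

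The sodium channel and steroid-handling genes of the aldosterone-sensitive distal nephron stood at low levels. Scnn1b, a subunit of the epithelial sodium channel, stood at 55.2, 0 and 52.9 CPM in DCT cells, 0 in every TAL sum and 783, 674 and 663 CPM in PC. Its 42 UMIs made it at least 30.3-fold higher than in TAL, and it was lower than in PC by a log2 difference of -3.76 (SE 0.32, adjusted p = 5.5e-30, edgeR). Hsd11b2, which shields the mineralocorticoid receptor from cortisol-like steroids, stood at 20.1, 0 and 20.5 CPM against 3701, 5283 and 3761 CPM in PC, a difference of -7.65 (SE 0.37, adjusted p = 1.38e-90, edgeR). Of 8 tested genes of the list, 2 were higher against TAL, Scnn1b and Hsd11b2, the latter only in the fit of all libraries (adjusted p = 0.0378, and 0.0913 to 0.419 with a library left out, edgeR), and 1 higher and 5 lower against PC. The one higher than in PC was Fkbp5, a glucocorticoid-induced chaperone, whose call was lost without the control or the 60 min library (adjusted p = 0.149 and 0.357). Tissue kallikrein Klk1 stood at 4819, 1865 and 7446 CPM in DCT cells, and its differences of 0.55 (SE 0.31) and 0.03 (SE 0.31) did not pass.

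Kcnj10, the basolateral potassium channel subunit that loses function in a salt-wasting syndrome, stood at 110, 66.8 and 106 CPM against 23.8, 24.0 and 41.2 CPM in TAL, a difference of 1.53 (SE 0.32, adjusted p = 3.87e-05, edgeR). PC held more of it, at 168, 112 and 221 CPM, a difference of -0.75 (SE 0.29, adjusted p = 0.0489, edgeR). That call was lost with any library left out (adjusted p = 0.0529 to 0.530, edgeR) and by DESeq2 (0.0847). Fxyd2, which encodes the regulatory subunit of the sodium pump, was higher than in PC by 3.28 (SE 0.37, adjusted p = 2.35e-16, edgeR), and against TAL the differences of Fxyd2 (0.23) and the pump subunit gene Atp1b1 (-0.47) were short of the threshold. Of 11 tested genes of creatine metabolism and the citric acid cycle, 7 were higher than in PC (median 0.73, all genes 0.02), among them Ckb, brain-type creatine kinase, at 1004, 1230.4 and 567 CPM against 8.63, 112 and 19.8 CPM. Without the control library, 6 of these 7 lost the call, and Ckb kept it. The difference of Ckmt1, a mitochondrial creatine kinase gene, was 0.05 (SE 0.29, adjusted p = 0.929, edgeR), short of the threshold. Among 14 glycolysis genes, 1 was higher and 1 lower against TAL, the higher one being Pgam2 (5.49, SE 0.30, adjusted p = 1.16e-70, edgeR).

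**Figure D3:**
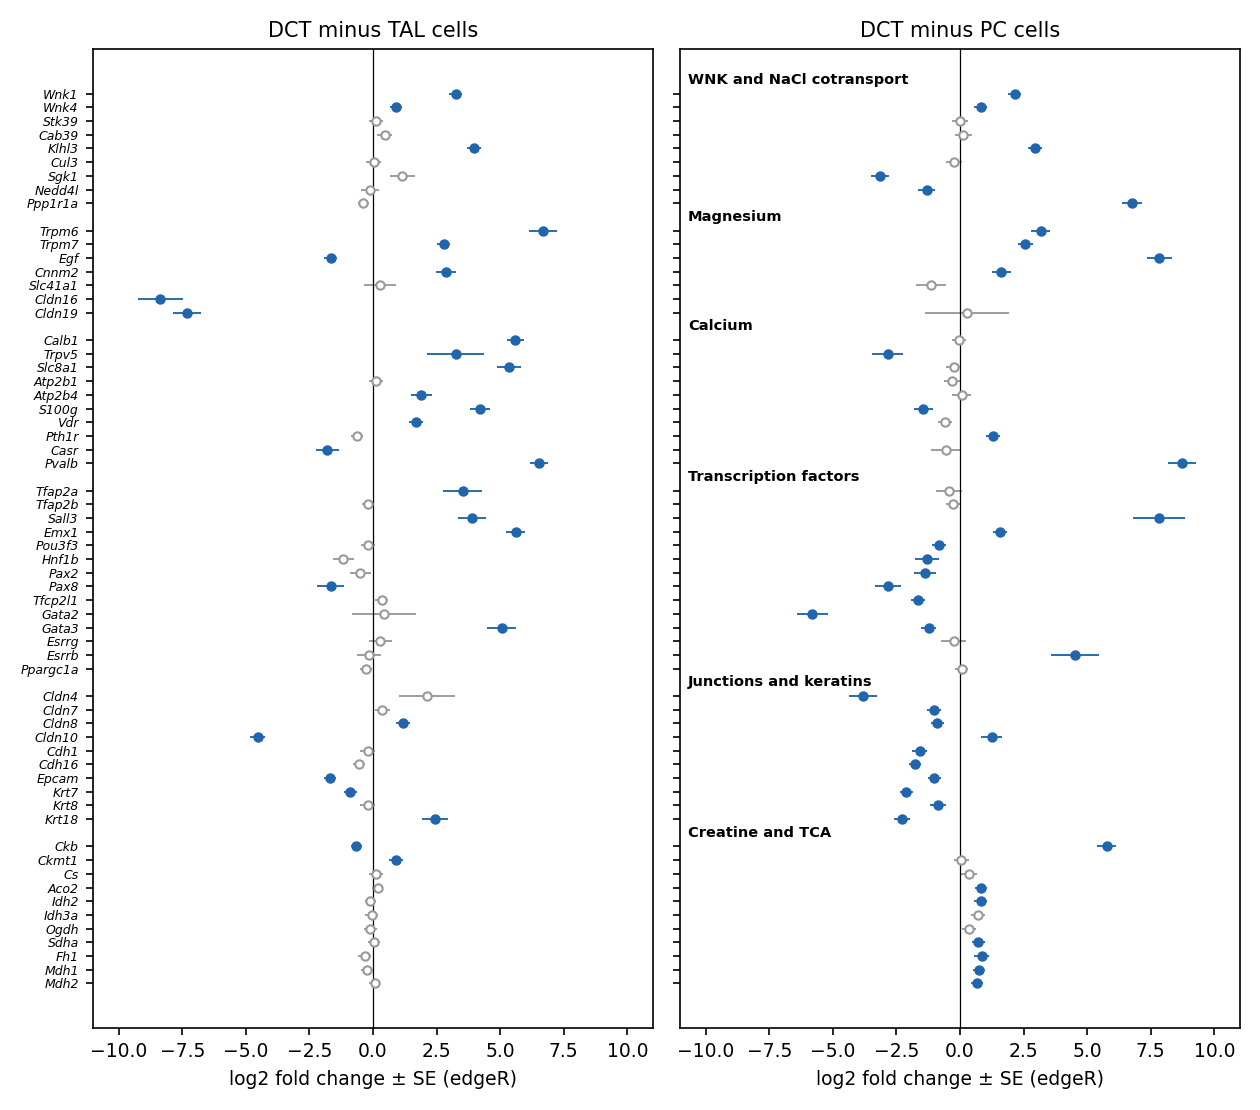
Log2 fold changes of DCT against TAL and against PC cells from the edgeR fit, with SE bars, for the genes of 6 lists. Filled points passed an adjusted p of 0.05. In the calcium list 7 of 10 genes passed on the DCT side against TAL and 2 of 10 against PC, and Trpm6, Trpm7 and Cnnm2 of the magnesium list passed on the DCT side in both.

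Transcription factor genes differed in both directions. Emx1, a homeobox gene, stood at 366, 323 and 183 CPM in DCT cells, 0, 7.21 and 5.24 CPM in TAL and 99.2, 0 and 95.8 CPM in PC, and was higher by 5.61 (SE 0.37) and 1.57 (SE 0.28). Sall3, a zinc finger gene, stood at 100.4, 72.4 and 35.9 CPM in DCT cells and at 0 in every PC sum, at least 21.1-fold higher, and was higher than in TAL by 3.89 (SE 0.54, adjusted p = 3.09e-11, edgeR). Gata3, a factor of the collecting duct lineage, stood at 60.2, 44.5 and 63.2 CPM, above the 3 UMIs found in all TAL cells (CPM ratio 41.1, 13.4 to 205) and below PC, where its fitted difference was -1.23 (SE 0.30, adjusted p = 0.000562, edgeR). Without the control library, that difference was -1.01 (adjusted p = 0.189). Gata2, by contrast, had at most 3.42 CPM in DCT cells against 138, 337 and 148 CPM in PC. Tfap2b, which with Tfap2a encodes AP-2 factors, stood at 236, 156 and 123 CPM in DCT cells and differed by -0.20 (SE 0.25, adjusted p = 0.789) and -0.29 (SE 0.27, adjusted p = 0.513), short of the threshold. Over the list of 14, 4 were higher and 1 lower against TAL, and 3 were higher and 7 lower against PC. Nearly all junction and keratin genes were lower than in PC, 9 of 10, with Cldn10 the exception (1.24, SE 0.42, adjusted p = 0.0217, and 0.0846 to 0.308 with a library left out, edgeR), while against TAL 2 were higher and 3 lower, among them Epcam (-1.69, SE 0.23, adjusted p = 4.25e-11, edgeR), the surface protein often used to sort epithelium. Of the 9 lower than in PC, Cldn7, Cldn8, Epcam and Krt8 lost the call without the control library, and Cldn7, Cldn8 and Krt8 without the 60 min library.

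Among the 10 largest differences in each direction, the DCT side against TAL held Trpm6, Lhx1, Pvalb, Slc2a9, Emx1, Calb1, Rhcg, Pgam2, Slc8a1 and Lrrc52. Lhx1, a homeobox gene of early nephron patterning, stood at 643, 401 and 331 CPM against 0, 0 and 6.73 CPM in TAL, and the ammonia channel gene Rhcg at 126, 72.4 and 137 CPM. The TAL side held Tmem207, Cldn16, Nccrp1, Irx2, Id4, Cldn19, Adcy1, Fa2h, Irx1 and Pcsk6, none of which reached 2 CPM in any DCT sum. Against PC, the DCT side was led by Pvalb, Egf, Sall3, Lrrc52, Col5a2, Ank2, Fam107a, Uroc1, Ppp1r1a and Prox1. The PC side was led by Kcne1, Aqp3, Fxyd4, Mcoln3, Gprc5b, Bmpr1b, Hsd11b2, Spink8, Fanca and Ehf. Of these, Mcoln3 and Fanca lost the call by DESeq2 (adjusted p = 0.312 and 0.371). Pvalb, with 491 UMIs in DCT cells and 1 in PC, had a CPM ratio of 575 (103 to 22771), and Kcne1, a potassium channel subunit at 0 UMIs in DCT cells, was at least 132-fold lower than in PC.

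Across the 18 sums of 6 cell classes in 3 libraries, the genes whose level followed Slc12a3 most closely were Pvalb (Spearman 0.82), Cwh43 (0.81), Sfrp1 (0.78), Ppp1r1a (0.78), Mt2 (0.76), Egf (0.75), Uroc1 (0.75), Mt1 (0.74), Wnk1 (0.73) and Slc5a3 (0.73), out of 1065 genes with at least 100 CPM in a DCT sum. The sums share libraries, the rule made Slc12a3 high in DCT sums, and the minimum level was asked of DCT sums, so that genes high in DCT cells were favored and these values are a description.

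The cells called DCT were not uniform, and S100g divided them. Whether the S100g-rich ones include connecting tubule cells was not tested. Of 198 cells, 85 held no S100g UMI, 26 held under 5 per 10000 UMIs, 10 held from 5 to under 10, 6 held from 10 to under 20, and 71 held 20 or more, of which 52 held 100 or more. The cut at 10 per 10000 was chosen after these values were seen, so the contrast is a range and not a type, and was not tested. S100g-rich cells were 14 of 43 in the control (32.6%, 19.1 to 48.5), 4 of 30 at 15 min (13.3%, 3.76 to 30.7) and 59 of 125 at 60 min (47.2%, 38.2 to 56.3). The 60 min interval stood above the 15 min interval without overlap of the intervals, and the control overlapped both. Over all libraries, S100g-rich and S100g-poor cells had medians of 4366 and 4316 UMIs and of 27.5 and 32.5 UMIs of Slc12a3 per 10000, but this did not hold in each library. In the control, S100g-rich cells had a median of 2251 UMIs against 4825, and 36.7 UMIs of Slc12a3 per 10000 against 101. The medians were 5619.5 against 5963.5 UMIs and 21.9 against 21.8 per 10000 at 15 min, and 4389 against 3656 UMIs and 26.4 against 29.7 per 10000 at 60 min. The median mitochondrial share was higher in S100g-rich cells of each library, at 22.7 against 12.1%, 29.3 against 19.7% and 35.5 against 32.2%, and its part in the contrast was not tested.

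S100g-rich cells held more of the calcium genes Calb1, Slc8a1, Pth1r and Vdr. Calb1 stood at 6122, 6182 and 8205 CPM in the S100g-rich cells of the 3 libraries and at 806, 435 and 499 CPM in the S100g-poor cells, a ratio of 13.9 (12.4 to 15.7) over all libraries. In each library the S100g-rich cells were above the S100g-poor cells of all 3. Slc8a1 stood at 335 against 23.6 CPM (14.2-fold), Pth1r, the parathyroid hormone receptor, at 418 against 141 CPM (2.96-fold), and Vdr at 246 against 103 CPM (2.39-fold). Klk1 (12844 against 1507 CPM), Clu (2075 against 327 CPM), the klotho gene Kl (1454 against 285 CPM) and Scnn1b (94.4 against 11.8 CPM) were higher in the same cells. S100g-poor cells held more Pvalb (785 against 67.5 CPM, 11.6-fold, 7.78 to 18.2), more Ckb (1194 against 119 CPM), and more Fxyd2 (10883 against 4433 CPM), Egf (1164 against 467 CPM) and Trpm7 (423 against 170 CPM). Immediate early genes were also higher there, Jun at 906 against 159 CPM and Fosb at 308 against 48.6 CPM. The S100g-poor cells also held more of the macrophage and class II genes C1qb (150 against 10.8 CPM), H2-Eb1 (365 against 32.4 CPM) and H2-Ab1 (335 against 32.4 CPM). Leukocytes, chosen by Ptprc, held Jun at 1316, 1453 and 2758 CPM and Fosb at 275, 256 and 576 CPM. The part of leukocyte RNA in these differences was not tested. Cotransport and segment genes differed by less than 1.5-fold, namely Wnk1 (3100.3 against 2306 CPM), Klhl3 (426 against 551 CPM), Pgam2 (1071 against 830.3 CPM), Trpm6 (148 against 109 CPM), Emx1 (213 against 268 CPM) and Gata3 (70.2 against 52.2 CPM). Calb1, Slc8a1, Pth1r and Vdr thus went in the direction opposite to Pvalb among cells with similar levels of Wnk1, Klhl3 and Trpm6.

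**Figure D4:**
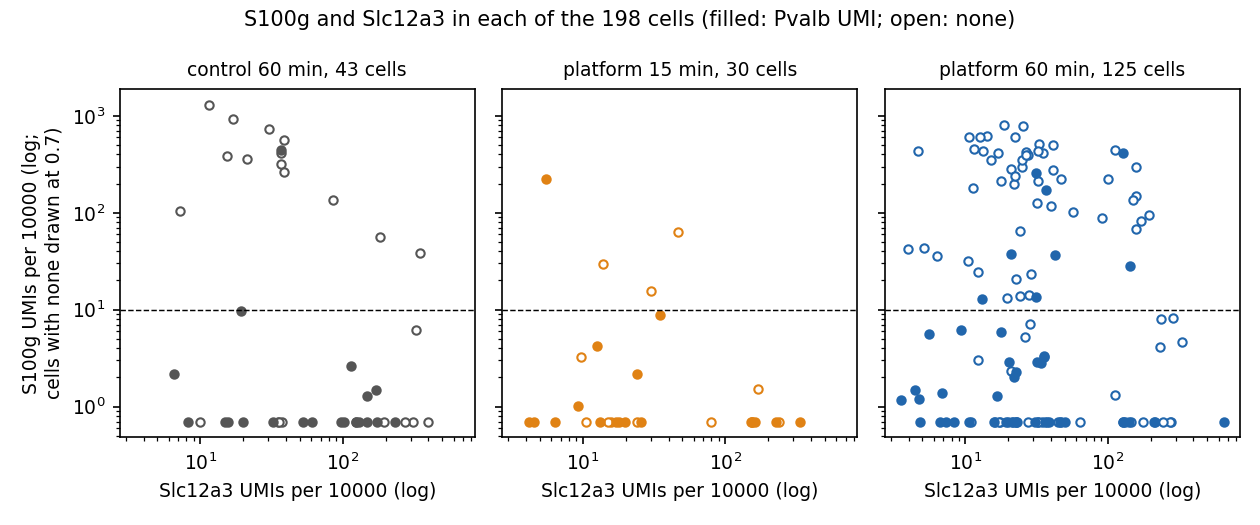
S100g against Slc12a3, both in UMIs per 10000 on log axes, for each DCT cell, with 1 panel per library. Filled points held a Pvalb UMI, the dashed line marks 10 per 10000, and cells with no S100g are drawn at 0.7. Filled points lie mostly below the line, and the upper group is fullest at the 60 min interval.

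A Pvalb UMI was found in 20 of 43, 18 of 30 and 45 of 125 cells, and 1, 1 and 8 of these were S100g-rich. Over the 195 DCT cells with at least 1000 UMIs, thinned to that depth, the Spearman correlation across cells was 0.75 between Calb1 and S100g, 0.74 between S100g and Klk1, -0.36 between S100g and Pvalb, -0.45 between S100g and Ckb, and 0.43 between Pvalb and Ckb. Slc12a3 correlated with Wnk1 at 0.41 and with S100g at -0.16. Cells of one library share its depth and free RNA, so these are descriptions and carry no test.

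Between preparations, levels were compared as CPM ratios of summed DCT cells. A gene was past 2-fold when it had at least 100 CPM in the higher library and exact 95% Poisson intervals that did not overlap, and it was named for being among the 10 largest ratios in its direction. From the control to the 15 min interval, 73 of 1456 genes were past 2-fold higher (5.01%) and 28 lower (1.92%). Of the 73 higher genes, 66 (90.4%) had more CPM in PT cells than in DCT cells, against 44.6% of all genes tested, and 27 had over 50% of their UMIs in 1 cell. Slc34a1, the PT phosphate transporter, stood at 35.1 CPM in the control and 1036 CPM at 15 min, a ratio of 29.5 (14.0 to 74.3), with 60.8% in 1 cell. Ugt2b38, with 3 control UMIs, had a ratio of 32.5 (10.8 to 161), and Mep1a, Lrp2 and Guca2b, with 1, 1 and 2 control UMIs, had ratios of 32.2, 28.8 and 26.6 whose lower bounds were 5.33, 4.74 and 6.98. Cyp2a5, Slc7a13, Cyp2a4, Slco1a1 and Hist4h4 had no control UMI. Against a floor of 3 UMIs in the control they were 7.02- to 11.1-fold higher, and the lower bounds of their ratios were 5.18 to 8.48. Each of these 10 genes had over 50% of its 15 min UMIs in 1 cell, from 52.1% for Guca2b to 90% for Cyp2a5 and 100% for Cyp2a4. When DCT cells with over 1 UMI of Slc34a1 were left out, 17 genes were higher and 18 lower.

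**Figure D5:**
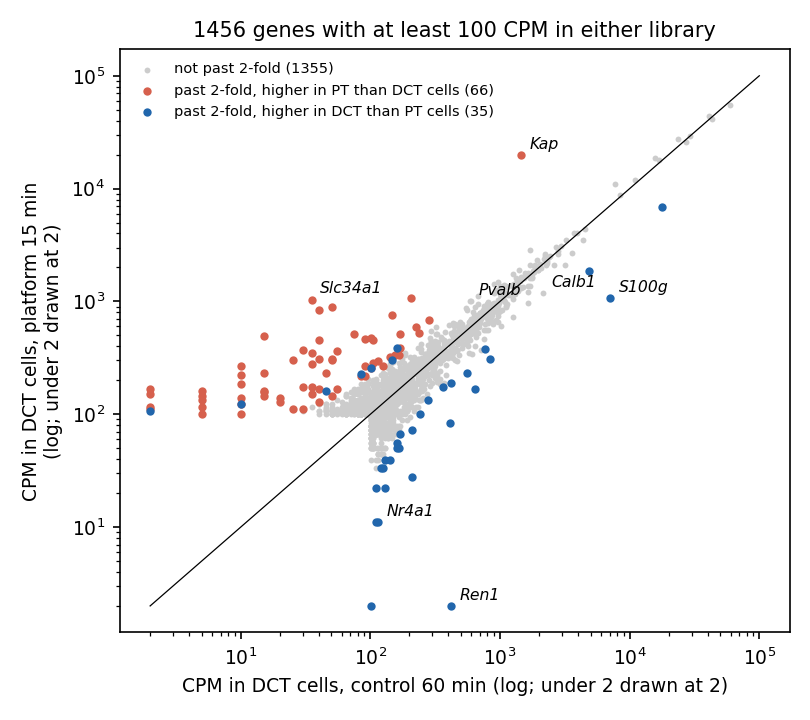
CPM of 1456 genes in DCT cells of the 15 min interval against the control, on log axes. Genes past 2-fold are colored by whether their level was higher in PT cells (66 genes) or in DCT cells (35 genes), and the former lie almost wholly above the diagonal.

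Of the 28 genes lower at 15 min, 0 had more CPM in PT cells than in DCT cells. S100g was among them, at 7113 against 1063 CPM (6.69-fold lower), with Klk1 (4819 against 1865 CPM), Clu (838 against 312 CPM) and Klhl3 (768 against 379 CPM). Klk1 and Clu were also higher in S100g-rich cells, of which the 15 min interval held 4. The early response genes Nr4a1 (115 against 11.1 CPM) and Atf3 (110 against 11.1 CPM) and the heat shock gene Hspa1b (131 against 22.3 CPM) were lower as well, although 81.8% of the control UMIs of Atf3 came from 1 cell. Ren1 and Crip1, at 422 and 100.4 CPM in the control, each came wholly from 1 control cell. Kmt2e, Thoc2, Gm26917 and Lars2 completed the list, at ratios of 3.85- to 7.57-fold lower.

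From the control to the 60 min interval, 48 of 1322 genes were higher (3.63%) and 70 lower (5.3%). With CPM computed outside mitochondrial genes, whose share was larger at 60 min, the counts were 72 higher and 37 lower, so that the balance of directions followed the scaling. The largest ratios were the class II and macrophage genes H2-Eb1, C1qb, C1qa, Cd74, H2-Aa, H2-Ab1 and Lyz2, beside the PT genes Gatm, Lrp2 and Ass1. Lyz2 was at 25.1 CPM in the control and 345 CPM at 60 min, with 96.5% of its 202 UMIs in 1 cell, and Cd74 at 30.1 and 837 CPM, with 58.2% in 1 cell. Without the cells holding 10 or more UMIs of Lyz2 and Cd74 together, 39 genes were higher and 71 lower. Calb1 (2149 and 4408 CPM) and Slc8a1 (85.3 and 205 CPM) were the 2 calcium genes past 2-fold higher. Sall3, Emx1 and Ppargc1a were the 3 of 6 transcription factor genes past 2-fold lower, at 35.9, 183 and 118 CPM against 100.4, 366 and 256 CPM. With CPM computed outside mitochondrial genes, Calb1 and Slc8a1 stayed past 2-fold higher, while 0 of the 6 transcription factor genes were past 2-fold, with Emx1 and Ppargc1a 1.78- and 1.92-fold lower and Sall3 2.48-fold lower with overlapping intervals.

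From the 15 min to the 60 min interval, 36 of 1324 genes were higher (2.72%) and 83 lower (6.27%), or 62 and 72 with CPM computed outside mitochondrial genes. Slc8a1 (5.57 and 205 CPM) and S100g (1063 and 12202 CPM, ratio 11.5, 9.94 to 13.3) were among the 10 largest ratios, beside Lyz2, H2-Aa, H2-Ab1, H2-Eb1, C1qa, Cd74, Tmsb4x and Apoe. The 10 largest in the other direction were Hist4h4, Cyp2a5, Slco1a1, Ddit4, Ces2c, Cyp4b1, Tmigd1, Ugt2b38, Kap and Slc7a13, and 50 of the 83 had more CPM in PT cells. Kap stood at 19714 CPM at 15 min and 3921 CPM at 60 min, with 66.0% of the 15 min UMIs in 1 cell. Its direction turned with a mitochondrial limit of 25%, as did those of Cyp2a5, Ces2c, Cyp4b1, Tmigd1, Ugt2b38 and Slc7a13. Of the 6 WNK genes tested, 0 were past 2-fold in either direction between these intervals. Over all genes tested, 2.72% were higher and 6.27% lower, so 6 genes are too few to set the list apart.

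Stress response genes can be switched on while tissue is digested, and the study compared their levels between preparations. The summed level of 12 of them, the heat shock genes Hspa8, Hspd1 and Hsp90aa1 and the early response genes Fos, Fosb, Jun, Junb, Jund, Egr1, Atf3, Gadd45b and Nr4a1, in DCT cells was 4493 CPM (4203 to 4797) in the control, 4855 CPM (4538 to 5188) at 15 min and 4025 CPM (3864 to 4191) at 60 min. The intervals of the control and 15 min overlapped, and both lay above that of 60 min. The order of the control and 60 min turned with CPM computed outside mitochondrial genes (5717 and 5785 CPM) and with no mitochondrial limit (2697 and 2719 CPM), while the 15 min sum was highest under both. In TAL the sums were 3528, 2118 and 3885 CPM, in PT 4099, 3304 and 4958 CPM, and in endothelial cells 21640.1, 11213 and 23776 CPM, with the 15 min interval lowest in each. In PC they were 3356, 5845 and 3116 CPM, the same order as in DCT cells, although the 15 min value came from 7 cells. None of these orders was tested. Single genes moved apart within the sum, as Nr4a1 was at 115, 11.1 and 37.6 CPM, Fos at 708, 373 and 396 CPM, and Jund at 552, 835 and 463 CPM. Against the other segments within libraries, 4 of 12 were higher than in TAL (median 0.31), and 6 were higher and 1 lower than in PC (median 0.62). Of these 7, Atf3, Fos, Hspa8, Jund and the lower one, Egr1, lost the call without the control library, and Atf3, Fos and Jund also without the 60 min library. Fosb was the clearest, at 181, 256 and 203 CPM against 56.6, 21.6 and 95.04 CPM in TAL and 53.9, 112 and 48.7 CPM in PC, with differences of 1.71 (SE 0.26, adjusted p = 5.18e-09, edgeR) and 2.22 (SE 0.32, adjusted p = 1.52e-10, edgeR). The 4 against TAL were Fosb, Jun, Jund and Nr4a1, and without the 15 min library only Fosb of these 4 kept the call.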

How the data were processed

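The deposited values were counts of UMIs per gene and cell, made by the authors with Cell Ranger 3.1.0 on mm10, with the kidney libraries combined by Cell Ranger aggr, which thins deeper libraries to an even depth. The barcode suffix named the library through the deposited aggregation table, and 0 columns stayed unmapped. From these counts, cells with 200 to 3000 genes and at most 50% UMIs of 13 mt- genes were kept and assigned by UMIs of Slc12a3, Slc12a1, Aqp2, Slc34a1, Pecam1 and Ptprc. No doublet caller was run. The members and gene lists were chosen with earlier results of these data known.

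UMIs summed per library and segment (9 sums, 3 libraries of each segment) were fitted with edgeR 4.0.16 in R 4.3.3 (quasi-likelihood test, TMM, library as block since cells of a library share 1 preparation, all preparations being from 1 mouse per the study's reporting summary, Benjamini-Hochberg adjustment, threshold 0.05), and the steps were tested on simulated data. Libraries were compared by CPM with exact Poisson intervals, without a test (Python 3.11.15, scipy 1.17.1). Depth was 199202 to 585579 UMIs per DCT sum. Named genes were the fixed lists, the 10 largest called changes per direction with the same sign in 3 of 3 libraries, the 10 largest ratios past 2-fold per direction, and the 10 genes most like Slc12a3. The genes of the rule were left out of calls, and some genes of the lists are not reported here. Alternatives were other limits on genes, mitochondrial UMIs, Slc12a3 and Slc34a1, no filter on low counts, no library block, DESeq2 1.42.0, each library left out, CPM outside mt- genes and thinning to 1000 UMIs. The 3 tumor libraries were only counted.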

Additional observations from a re-analysis of the deposited data

Results flagged for a closer look

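Cells that met the rule on UMIs but lay outside the limits on cells formed a signal that the comparisons did not use. Over the mitochondrial limit there were 30 such cells in the control, 26 at the 15 min interval and 91 at the 60 min interval, and over the gene limit there were 51, 29 and 49. Cells over the mitochondrial limit were thus 31.3% of all 470 cells that met the rule on UMIs, against 8.29% of all kidney cells, and cells over the gene limit were 27.4%, against 20.7%. S100g-rich cells made up 16 of 30, 6 of 26 and 35 of 91 of the cells over the mitochondrial limit, and 3 of 51, 3 of 29 and 12 of 49 of those over the gene limit. Those over the gene limit had medians of 140, 140 and 118 Slc12a3 UMIs, against 16, 8.5 and 9 in kept DCT cells. Their median mitochondrial share was 4.47, 6.42 and 18.4%, against 19.9, 19.7 and 34.6%. They were deeper, at medians of 14807, 13267 and 17657 UMIs against 3370, 5782.5 and 4268. Outside mitochondrial genes, their Slc12a3 was lower, at 8952, 9510 and 7058 CPM against 14403, 10126 and 9638 CPM. Whether cells over the gene limit are doublets was not tested.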

How the results depend on the processing

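With 1 library per condition, the order of shares and levels between preparations had no replicate. The 15 min PC sum was shallow, and genes under 100 CPM were not compared between libraries. Of the values that answer a comparison, 126 stayed within their error or 1.5 times and 65 moved. The order of the control and 60 min turned for the DCT share with the 25% limit and for the stress sum with no mitochondrial limit or outside mitochondrial genes. Of single genes, 3623 values kept direction and side of the threshold, 263 lost and 78 gained a call, 119 moved and 45 reversed. The causes were not tested.

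The DCT share (control, 15 min, 60 min) was 1.16, 0.628 and 1.963% with no mitochondrial limit. It was 0.496 and 0.491% in the control and at 60 min with a 25% limit, 1.26 and 0.529% in the control and at 15 min with no upper gene limit, and 0.179 and 0.866% at 15 and 60 min with Slc12a3 at 20 per 10000 or more. At 60 min it was 1.53% with at least 2 and 0.876% with at least 5 UMIs of Slc12a3. Thinned to 1000 UMIs per cell, it was 1.19% in the control and 1.98% at 60 min. The S100g-rich share was 37.5% at 60 min with the 25% limit and 18.1% in the control with no upper gene limit.

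Against TAL, 65 genes were higher and 64 lower with the 25% limit (PC 288 and 151), and 347 and 393 with no upper gene limit (PC lower 715). Leaving out a library gave 120 to 174 and 113 to 190 genes against TAL, and 193 to 510 and 170 to 471 against PC, with the fewest on the PC higher side without the control and in the other 3 counts without the 60 min library. Without the library block, the paired analysis being the reported one, the counts were 180, 197, 516 and 447. DESeq2 called 184, 180, 463 and 375.

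The stress sum was 2697, 3383 and 2719 CPM with no mitochondrial limit, 5027, 6383 and 4505 CPM with Slc12a3 at 20 per 10000 or more, and 5717, 6249 and 5785 CPM outside mitochondrial genes. At 15 and 60 min it was 5282 and 4199 CPM with at least 5 UMIs of Slc12a3, and 4465 and 3522 CPM as a mean of cells.

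Genes past 2-fold were 14 higher (15 min against control), 130 higher (60 min against control) and 144 higher (60 against 15 min) with the 25% limit. With no upper gene limit they were 145 lower, 86 higher and 179 lower, and 29 lower in the same order of contrasts. With Slc34a1 at most 1 UMI they were 17 higher and 18 lower, and 23 higher at 60 min against control. With no mitochondrial limit they were 9 lower, 25 higher and 5 lower, and 51 lower. With Slc12a3 at 20 per 10000 or more they were 24 and 29 higher against control. Outside mitochondrial genes they were 37 lower at 60 min against control and 62 higher at 60 against 15 min. With a minimum of 50 CPM, 50 and 123 were lower against control. Among genes lower in PT cells, 7 and 17 were higher against control and 33 lower at 60 against 15 min.

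Values that reversed are given as log2. At 60 min against control, Lyz2, Ren1 and Crip1 were at -1.39, 0.19 and 2.85 with at least 5 UMIs of Slc12a3 and -0.86, 0.20 and 2.86 with 20 per 10000, and Lyz2 was at -1.82 without cells holding 10 UMIs of Lyz2 and Cd74. At 60 against 15 min, Cyp2a5, Ces2c, Cyp4b1, Tmigd1, Ugt2b38, Kap and Slc7a13 were at 0.67, 1.204, 2.17, 3.00, 2.19, 2.95 and 1.90 with the 25% limit. Tmigd1, Kap and Slc7a13 were at 2.56, 0.93 and 1.10 with Slc34a1 at most 1 UMI, and Ces2c, Tmigd1 and Ugt2b38 at 0.30, 1.15 and 0.79 with Slc12a3 at 20 per 10000. Against TAL, Slc34a1 and Miox were at 0.62 and 0.52 with at least 2 UMIs of Slc12a3, Hsd11b2, Atp6v1g3 and Krt8 at -0.74, 1.48 and 0.93 with no upper gene limit, Slc27a2 and Napsa at -2.09 and -3.20 with 20 per 10000, and with a library left out Cd74 ranged from -3.37 (60 min) to 1.88 (15 min) and Trpv5 from -2.01 (60 min) to 5.33 (control). Against PC, Kap was at -0.066 with the 25% limit, Cldn16, Klk1, Krt8, Ckmt1, Junb and Clu at -4.32, -1.95, 0.16, -0.72, 1.39 and -1.22 with no upper gene limit, Cldn10, Slc34a1, Kap, Miox, Slc27a2 and Napsa at -0.64, -1.18, -1.66, -0.78, -1.42 and -2.64 with 20 per 10000, Cd74 at -1.35 without cells holding 10 UMIs of Lyz2 and Cd74 and from -1.80 (60 min) to 1.86 (15 min) with a library left out, and Atf3 at -0.45 with DESeq2. No mitochondrial limit, 20 per 10000, the limit on Lyz2 and Cd74 and all S100g-rich shares were chosen after seeing the data.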

Other observations

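The mitochondrial gene mt-Nd4l took 0.206, 0.198 and 0.7003% of the UMIs of DCT cells in the control, 15 min and 60 min libraries. It took 0.297, 0.279 and 0.696% in TAL cells and 0.186, 0.233 and 0.413% in PT cells, so the 60 min library was highest in all 3 classes.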
